A study of Homo sapiens with 9 samples.

Results

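Vesicles shed during staurosporine-induced apoptosis were compared with saline over all expressed genes of A549, a widely used human cell line from a lung adenocarcinoma. Staurosporine is a broad protein kinase inhibitor that is widely used to trigger apoptosis, and the membrane-bound particles that apoptotic cells release are called apoptotic extracellular vesicles (apoEVs). The group named STS_apoEV holds the 3 libraries titled for staurosporine, the group named control holds the 3 libraries of A549 cells given phosphate-buffered saline, and both were collected at 96 h. A further group of 3 libraries, DDP_apoEV, received vesicles from apoptosis induced by cisplatin, and serves below for comparison. Its libraries also enter the fit and so the estimate of spread behind each adjusted p. All 9 libraries come from A549 cells, and the labels name neither the cells that shed the vesicles nor the dose. No sample treated with staurosporine alone was analysed here, so the vesicles and any drug they carried cannot be told apart. The count table lists 62257 genes, of which 36246 had at least 1 count in the 6 libraries compared and 16947 passed the filter on low counts and were tested. Nothing in the labels states that libraries of 1 group came from separate cultures. The p-values therefore measure the spread between these 3 libraries of each group, and that spread may be technical.

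Cells take up apoptotic vesicles by phagocytosis and endocytosis and deliver them to lysosomes, the acidic compartments in which hydrolases break down proteins, lipids and sugars. Autophagy feeds the same compartment from inside the cell, and the transcription factors TFEB and TFE3 switch on genes of both systems when growth signalling through mTORC1 is low. Cells that lose growth factor or kinase signalling also free the FOXO transcription factors from inhibition by AKT, and FOXO targets restrain growth and division. Dividing tumour cells, in contrast, keep the synthesis of nucleotides, charged tRNAs and folded proteins high. The gene lists below cover these processes, the immune signals that epithelial cells send, and the cytoskeleton, matrix and receptors through which they contact their surroundings.

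Of the 16947 genes tested, 5552 changed between STS_apoEV and control (32.8%), 2698 higher (15.9%) and 2854 lower (16.8%), at an adjusted p under 0.05 in edgeR's quasi-likelihood test with no fold minimum. Most of the changes were small, since 4421 of the 5552 (79.6%) were under 2-fold and the median fold was 1.5 among rises and 1.39 among falls. Genes that rose held between 19 and 19.7% of the counts of each control library and between 25.8 and 26.1% of each STS_apoEV library. Genes that fell held 28.2 to 29% in control and 21.1 to 21.6% with STS_apoEV, while the tested genes that were not called held about the same share in all 6 libraries, 51.8 to 52.6%. The genes were called from these same libraries, so the direction of these shifts follows from the choice and only their size is informative. Among genes at 100 to 1000 CPM (counts per 1e+06 library counts, scaled with TMM factors), 343 rose and 541 fell (52.8% called), and among genes at 1 to 10 CPM 732 rose and 483 fell (22.3% called). Of 12810 protein-coding genes 38.6% changed, and of 2300 long non-coding genes 15.2% changed, 203 higher and 146 lower. The 3 control libraries and the 3 STS_apoEV libraries did not overlap for 43.3% of the genes tested and for 5284 of the 5552 called genes.

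Library totals ran from 14356195 to 15492993 counts in control and from 13799950 to 14816996 with STS_apoEV, and transcripts of the mitochondrial genome took 11.4 to 12.5% and 12.7 to 13.1% of them. Of 10 genes that mark A549 and other lung carcinoma epithelium 10 were tested, and their summed level was 34900 to 36500 CPM in control and 32300 to 33200 CPM with STS_apoEV (marker sums use library totals without TMM factors). Marker sums stayed low for lymphocytes (at most 2.09 CPM) and erythroid cells (at most 0.607 CPM). Fibroblast markers summed to 4.94 to 5.94 CPM in control and 6.5 to 8.26 CPM with STS_apoEV, with FAP at 0 in all 6 libraries, and endothelial markers to 1.78 to 2.26 and 2.97 to 4.52 CPM, with EMCN at 0. In bulk samples such as these, fewer cells of a type and less RNA per cell cannot be told apart.

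Beyond the few genes with the largest folds, the next 16 rises and 16 falls included secreted factors, receptors and signalling genes. IGFBP1, a secreted binding protein that limits insulin-like growth factors and a known FOXO target, stood at 17.5, 16.8 and 20.8 CPM in the control libraries and 114, 114 and 108 CPM with STS_apoEV. No STS_apoEV library came near a control library, and the rise was 6.11-fold (log2 fold change 2.61, SE 0.0946, adjusted p = 7.90e-20). Here and below, genes named by rank, abundance or list had to have groups without overlap. A gap between their groups was thus a condition of naming and gives no separate support. The complement gene C3, whose product is the central protein of the complement cascade, rose 5.9-fold from 18, 12.9 and 20.4 to 99.8, 104 and 98.8 CPM (adjusted p = 2.13e-04). STC1, a secreted glycoprotein hormone, rose 5.85-fold, from 5.27, 7.46 and 5.83 to 37.9, 35.7 and 35.1 CPM. SLCO2B1, an organic anion uptake transporter, rose 7.49-fold, and ITGAX, an integrin subunit best known from dendritic cells, rose 6.18-fold from 3.19 ± 0.946 to 19.7 ± 0.439 CPM (SD, n = 3). TPPP, which promotes tubulin polymerisation, rose 6.95-fold, DCLK1, a microtubule-associated kinase, 5.99-fold, and G0S2, an inhibitor of the triglyceride lipase PNPLA2, 6.22-fold. On a log2(FPKM + 1) scale, where changes of genes with low levels come out too small, the folds of TPPP, ITGAX, C3 and STC1, of CXCR4, PDZK1, RERG, GPRC5B, PKP2, OXTR and PDGFB and of GLDC, COL4A6, THBS1, FBXO32, YPEL3 and SOX2, described below, differed by over 1.5 times from those of the counts. Those genes are from the run with a filter on low values. Without that filter the same held for further genes, among them SLCO2B1, DCLK1, NLRC5, PIK3IP1, BMF, LRP1 and TP63.

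The falls of the same ranks included CXCR4, the receptor of the chemokine CXCL12, which fell 6.15-fold from 9.83, 12.5 and 10.2 to 1.82, 1.48 and 1.97 CPM (adjusted p = 1.12e-09). KRT80, an epithelial keratin, stood at 111, 101 and 89.1 CPM in control and 19, 17.7 and 17.5 CPM with STS_apoEV. The groups were far apart, and KRT80 fell 5.56-fold (log2 fold change −2.47, SE 0.0931). PKP2, a desmosome plaque protein, fell 4.36-fold, OXTR, the oxytocin receptor, 4.23-fold, PDGFB, a growth factor chain, 4.21-fold, and RERG, a small GTPase of the RAS family, 5.34-fold from 27.7 ± 1.62 to 5.18 ± 0.342 CPM. The orphan receptor gene GPRC5B fell 5.09-fold, and PDZK1, a scaffold of apical transporters, 5.71-fold.

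Several of the changed genes were abundant, with a mean of at least 200 CPM over the 6 libraries. NAMPT, the rate-limiting enzyme of NAD salvage that is also secreted as a cytokine, rose 3.24-fold from 274, 293 and 281 to 898, 854 and 993 CPM (log2 fold change 1.69, SE 0.0757, adjusted p = 7.16e-18). Its processed pseudogene NAMPTP1 was listed at 16.5 ± 2.38 and 46.9 ± 5.4 CPM, and reads of the pair may have been divided between them in the deposited counts. PTGS2, the inducible cyclooxygenase of prostaglandin synthesis, rose 2.91-fold from 132, 136 and 182 to 452, 385 and 475 CPM, and SAT1, the rate-limiting enzyme of polyamine breakdown, 2.67-fold from 252, 246 and 303 to 687, 687 and 766 CPM. KYNU, an enzyme of tryptophan breakdown through kynurenine, rose 2.42-fold to 1009 ± 59 CPM, ALDH3A1, an aldehyde dehydrogenase, 2.36-fold to 2574 ± 191 CPM and the aldose reductase gene AKR1B1 2.07-fold to 3482 ± 277 CPM. CST3, a secreted inhibitor of cathepsins, rose 1.79-fold, and CREG1, a lysosomal glycoprotein, 1.74-fold.

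Abundant genes that fell included PRSS23, a secreted serine protease, at 606, 599 and 613 CPM in control and 176, 189 and 189 CPM with STS_apoEV. That was a fall of 3.28-fold (log2 fold change −1.71, SE 0.0698, adjusted p = 6.69e-19), and the 3 libraries of each group lay close together. MPRIP, which targets myosin phosphatase to actin, fell 2.33-fold from 324 ± 30.9 to 139 ± 5.54 CPM, SLC7A5, the large neutral amino acid transporter, 2.17-fold, and DKK1, a secreted Wnt inhibitor, 2.03-fold. KRT18, a keratin of simple epithelia, fell 1.8-fold from 4033 ± 196 to 2239 ± 117 CPM, EZR, which links actin to the apical membrane, 1.75-fold, and the glycoprotein gene CD24 1.75-fold.

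Genes linked to FOXO factors and to quiescence mostly rose. Of 26 tested members 16 rose, 11 of them by 2-fold or more, 2 fell and 8 were not called. The list had 69.2% called, against 32.8% over all tested genes. Its median log2 fold change was 0.65, against 0.013 over all tested genes. FBXO32, a ubiquitin ligase subunit of muscle atrophy, stood at 3.84, 3.15 and 4.37 CPM in control and 18.8, 17.3 and 16 CPM with STS_apoEV. FBXO32 rose 4.58-fold (adjusted p = 8.60e-12), with every STS_apoEV library well above every control library. ARRDC3, an arrestin-related adaptor, rose 2.86-fold from 22.6, 29.9 and 27.1 to 75, 69.7 and 82.9 CPM. YPEL5 and YPEL3, small zinc-binding proteins of which YPEL3 can arrest growth, rose 2.18-fold and 3.62-fold. Others that rose were CCNG2, an unconventional cyclin that slows the cell cycle (17.9 ± 0.717 to 43.5 ± 3.5 CPM), CDKN1B, the inhibitor p27 of cyclin-dependent kinases (46.2 ± 4.89 to 77.2 ± 4.55 CPM), IRS2, an adaptor of the insulin receptor (1.57-fold), and the repressor gene BCL6 (1.81-fold). TXNIP, which binds thioredoxin and limits glucose uptake, rose from 1.04, 0.274 and 0.972 to 4.84, 4.11 and 3.45 CPM. PDK4, which blocks the entry of pyruvate into the citric acid cycle, rose 4.9-fold from 41.8, 46.6 and 62.3 to 244, 224 and 271 CPM (adjusted p = 1.90e-09). GADD45B, a stress-response gene in the same list, fell 3.55-fold from 20.7 ± 2.25 to 5.83 ± 1.12 CPM. FOXO1 itself stood at 3.9, 4.51 and 4.51 CPM in control and 7.22, 6.41 and 5.42 CPM with STS_apoEV (log2 fold change 0.56, adjusted p = 0.0395), a call that was lost with DESeq2, without a filter on low counts, with the replicate block, with limma on log2(FPKM + 1) without a filter and when any 1 of the 6 libraries other than STS_apoEV replicate 3 was left out.

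Feedback genes of the ERK and AKT pathways and immediate early genes moved in both directions. Of 34 feedback genes 12 rose and 4 fell (47.1% called, against 32.8% over all tested genes), with a median of 0.08. The phosphatase genes DUSP6, which acts on ERK, and DUSP10, which acts on JNK and p38, rose 2.77-fold and 2.08-fold, DUSP6 from 12.3, 12.5 and 18.2 to 42.4, 33.1 and 43.6 CPM. PIK3IP1, an inhibitor of PI3-kinase, rose 4.61-fold to 4.61 ± 0.673 CPM, and SPRY4, an inhibitor of receptor tyrosine kinase signalling, 1.83-fold. Of 31 immediate early and AP-1 genes 14 rose and 6 fell (64.5% called). ZFP36, which destabilises cytokine mRNAs, rose 3.1-fold from 34.7, 32.9 and 45.7 to 122, 119 and 109.7 CPM, and its relative ZFP36L1 1.92-fold. MXD4, an antagonist of MYC, rose 2.32-fold and the antiproliferative gene BTG1 2.11-fold, whereas KLF2, a Krüppel-like transcription factor, fell 2.35-fold. MYC fell by 0.30 on the log2 scale, from 60.2 ± 4.58 to 49 ± 1.47 CPM (adjusted p = 0.0071), a call lost with limma on log2(FPKM + 1) without a filter.

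Genes of the BCL2 family and of apoptosis rose more often than they fell, 16 against 3 of 39 tested. The list had 48.7% called, against 32.8% over all tested genes, and a median of 0.24. Within the BCL2 family, BH3-only proteins neutralise survival proteins such as BCL2 and thereby favour cell death. PMAIP1, the gene of the BH3-only protein NOXA, stood at 33.1, 32.8 and 33.7 CPM in control and 85.8, 96.1 and 102 CPM with STS_apoEV, a rise of 2.85-fold (log2 fold change 1.51, SE 0.0881, adjusted p = 5.14e-15). The BH3-only genes BBC3 (PUMA) and BMF rose 2.5-fold and 5.47-fold, BMF from 0.456, 1.16 and 0.902 to 4.56, 5.13 and 4.15 CPM, and BCL2L11 (BIM) rose from 8.66 ± 1.32 to 14.3 ± 0.659 CPM. The survival gene BCL2 was low and fell 2.33-fold, from 3.77, 3.63 and 2.78 to 1.33, 2.16 and 0.845 CPM (adjusted p = 0.00237). Genes that restrain death rose as well, among them BIRC3, an inhibitor-of-apoptosis protein (1.56-fold), CFLAR, the inhibitor of caspase-8 activation (1.24-fold), and the survival gene MCL1 (1.23-fold). The death receptor gene FAS rose 1.49-fold and CASP8, its initiator caspase, 1.26-fold, while the effector gene BAX stood at 113 ± 7.87 and 99.5 ± 8.1 CPM (adjusted p = 0.0823).

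More lysosomal genes rose than fell in both lists that cover the organelle. Of 38 acid hydrolases 21 rose, 2 fell and 15 were not called. The list had 60.5% called, against 32.8% over all tested genes, and a median log2 fold change of 0.37. The cysteine cathepsin gene CTSS stood at 71.4, 76 and 71.9 CPM in control and 161, 164 and 187 CPM with STS_apoEV. That is 2.34-fold higher (log2 fold change 1.22, SE 0.0788, adjusted p = 5.27e-14), with no overlap between the groups, which was a condition of naming. CTSC, the protease that activates granule serine proteases, rose 1.98-fold and CTSB, a further cysteine cathepsin, 1.87-fold. IDUA, which cleaves glycosaminoglycans, rose 1.81-fold, and the mannosidase gene MAN2B1 1.92-fold. PPT1, which removes fatty acids from proteins, and the cathepsin gene CTSV fell by 0.31 and 0.48 on the log2 scale. Of 28 lysosomal membrane and proton pump genes 13 rose and 1 fell (50% called), with a median of 0.23 and no change of 2-fold. ATP6V1G1, a subunit of the proton pump, rose 1.44-fold from 104, 98.1 and 102 to 137, 149 and 153 CPM, CLCN7, the chloride and proton exchanger, 1.51-fold and the tetraspanin gene CD63, which also marks exosomes, 1.33-fold. The major membrane proteins LAMP1 and LAMP2 stood at 55.6 ± 4.58 and 221 ± 4.01 CPM in control and at 61.3 ± 2.57 and 241 ± 12.6 CPM with STS_apoEV, differences that did not pass the test.

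Autophagy genes followed the same direction, 15 higher and 1 lower of 30 (53.3% called, against 32.8% over all tested genes), with a median of 0.34. WIPI1, which recognises the lipid mark of forming autophagosomes, stood at 15.4, 17.1 and 16.9 CPM in control and 47.1, 46.5 and 47.9 CPM with STS_apoEV, a rise of 2.86-fold (adjusted p = 7.81e-14). GABARAPL1, an ATG8-family protein that coats autophagosome membranes, rose 2.56-fold from 22.9, 18.5 and 25.1 to 56.8, 51.4 and 62.2 CPM. ATG2A, a lipid transfer protein of membrane growth, rose 2.22-fold, OPTN, a receptor for ubiquitinated cargo, 1.77-fold, and ULK1, the initiating kinase, 1.39-fold. Of the MiT/TFE transcription factors TFE3 rose from 50.0 ± 3.02 to 64 ± 2.89 CPM (adjusted p = 9.13e-04), MITF fell 1.58-fold, and TFEB stood at 2.35 ± 0.43 and 3.61 ± 0.437 CPM (adjusted p = 0.115). SQSTM1, the p62 cargo receptor, was higher in mean but did not pass (log2 fold change 0.44, SE 0.441, adjusted p = 0.519).

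TFEB and TFE3 bind a short sequence known as the CLEAR element, whose core was searched as TCACGTG on both strands in RefSeq promoters of 250 bases before to 50 after each gene start (build GRCh38.p14). The letters include the general E-box CACGTG, and the palindrome TCACGTGA counts as 2 overlapping matches. Of 24 lysosomal hydrolase promoters 20.8% held the core, of 21 lysosomal membrane promoters 28.6% and of 28 autophagy promoters 7.14%. The core also stood in 16.7% of 18 chaperonin promoters and 11.6% of 43 splicing factor promoters, lists in which most called genes fell. The share was 5.73% of 11282 promoters of tested genes and 3.82% of all 27305 promoters, 6.49% among genes that rose, 5.39% among genes that fell and 3.74% among genes that rose 2-fold or more. In all, 13 motifs were searched in the promoters of 60 lists, and those shown here and below were picked from them by no rule fixed beforehand. The last 130 bases before the start of 4 risen lysosomal genes are shown, because their promoters hold the core, with its matches in capitals. CTSF and GAA, which also rose, and ATP6V0D1, also called, held the core in the same window and are not shown.

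ATP6V1G1, proton pump subunit, chr9:114587639-114587768, plus strand: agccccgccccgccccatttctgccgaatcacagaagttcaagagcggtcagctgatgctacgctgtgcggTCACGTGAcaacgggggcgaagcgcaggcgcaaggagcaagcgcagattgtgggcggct
CLCN7, chloride and proton exchanger, chr16:1475029-1475158, minus strand: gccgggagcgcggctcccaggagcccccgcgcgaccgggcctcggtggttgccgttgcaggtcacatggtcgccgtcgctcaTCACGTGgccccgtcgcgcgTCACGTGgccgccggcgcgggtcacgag
CTSA, protective protein and carboxypeptidase, chr20:45891205-45891334, plus strand: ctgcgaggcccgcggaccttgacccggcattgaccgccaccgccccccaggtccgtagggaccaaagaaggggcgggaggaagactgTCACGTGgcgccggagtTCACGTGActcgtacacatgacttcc
CTSD, aspartic protease, chr11:1763928-1764057, minus strand: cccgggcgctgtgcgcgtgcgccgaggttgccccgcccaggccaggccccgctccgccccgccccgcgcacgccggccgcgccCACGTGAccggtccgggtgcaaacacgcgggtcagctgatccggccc

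CTSA rose from 46.1, 42.7 and 51.8 to 66.5, 71.7 and 59.5 CPM and CTSD from 118, 88.5 and 120.0 to 164, 191 and 151 CPM, folds of 1.41 and 1.55. The promoters of WIPI1 and GABARAPL1 held no match, which says only that these letters are not in that window. Whether any of these matches is bound was not measured.

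**Figure D1:**
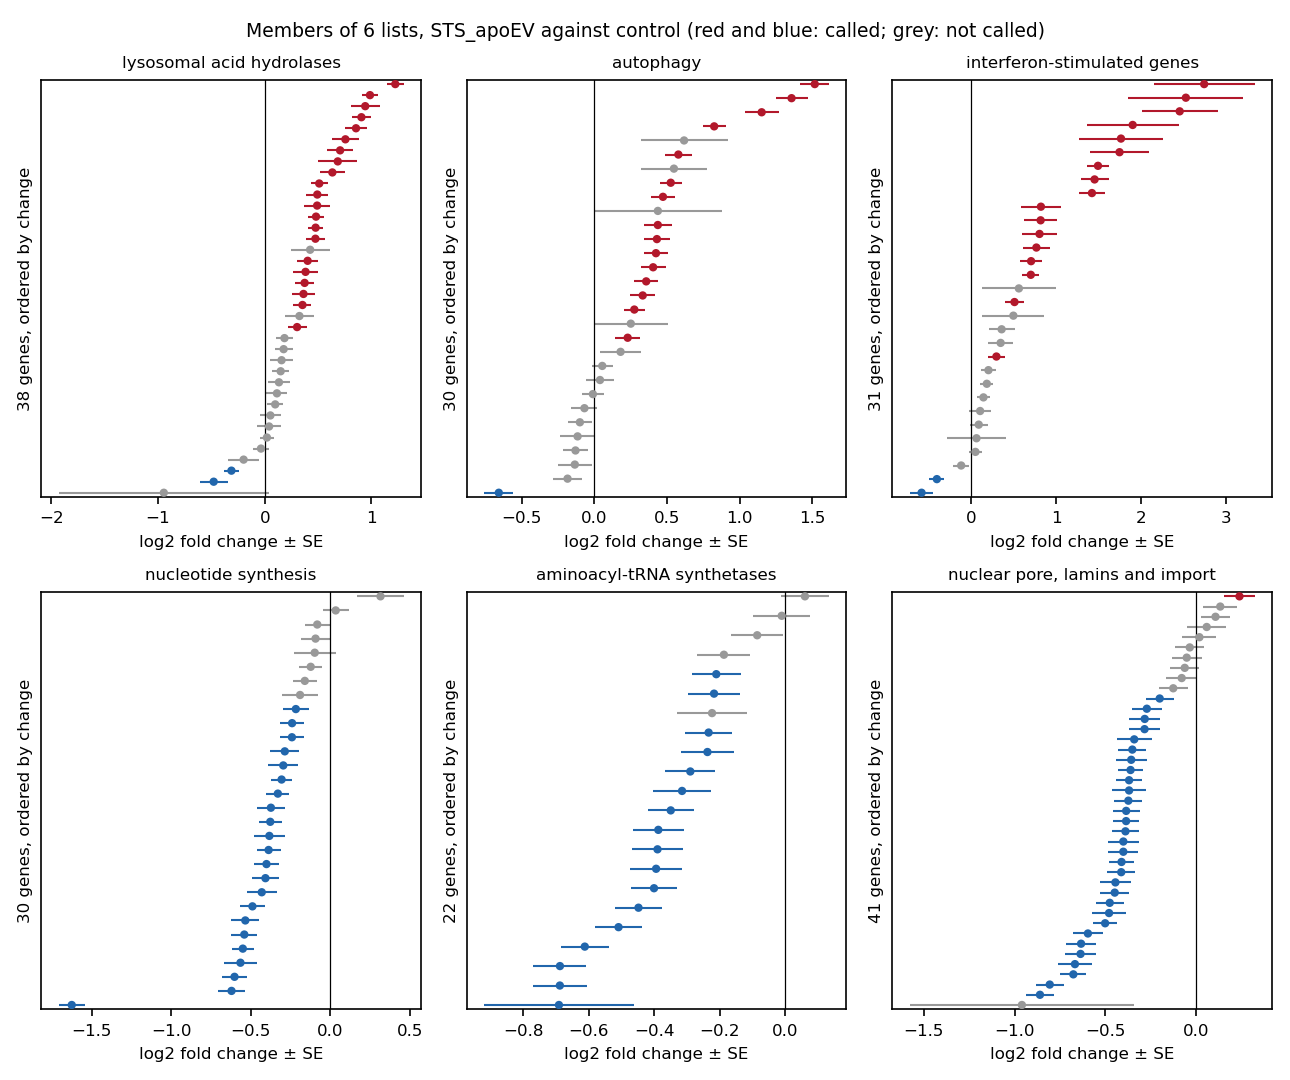
Log2 fold change of STS_apoEV over control with its SE (horizontal axis) for each tested member of 6 gene lists, 1 row per gene in order of its change, red where called higher, blue where called lower and grey where not called. Hydrolase, autophagy and interferon genes lie mainly to the right of 0, with 21, 15 and 17 called higher, and nucleotide synthesis, tRNA synthetase and nuclear pore genes mainly to the left, with 22, 17 and 30 called lower. Over all tested genes 15.9% were called higher and 16.8% lower.

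Interferon-stimulated and antigen presentation genes rose more often than they fell. Of 31 interferon-stimulated genes 17 rose and 2 fell (61.3% called, against 32.8% over all tested genes). The list's median was 0.56, and 9 members rose by 2-fold or more. IFIT3, an antiviral RNA-binding protein, stood at 9.11, 13.4 and 9.51 CPM in control and 31.1, 30.2 and 28.8 CPM with STS_apoEV (2.81-fold, adjusted p = 1.10e-10), and ISG15, a ubiquitin-like modifier, rose 2.68-fold. The transcription factor genes STAT2 and IRF1 each rose 1.63-fold. USP18, which removes ISG15 and dampens the interferon receptor, and the nucleic acid sensor gene OAS3 fell by 0.58 and 0.40 on the log2 scale. IFI16, a sensor of DNA on no list, rose 5.38-fold from 6.18, 7.87 and 6.25 to 34.8, 35.4 and 39 CPM, and the interferon-gamma receptor gene IFNGR1 2.31-fold from 64 ± 4.51 to 148 ± 7.24 CPM. B2M, the invariant light chain of MHC class I, rose 1.8-fold from 143, 141 and 144 to 242, 263 and 265 CPM, and NLRC5, the activator of MHC class I genes, 2.32-fold. Only 9 of the 18 genes on the MHC class I list were tested, and HLA-B, HLA-C, HLA-E, HLA-F, TAP1, TAP2, TAPBP, PSMB8 and PSMB9 are listed with at most 2 counts in any of the 9 libraries. Genes that most cells use, such as TUBB, EEF1G and PRPF8, are likewise listed with at most 1 count, so these rows were not read as absence.

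Cytokine and chemokine ligands rose in 13 of 21 tested members and fell in 2 (71.4% called), with a median of 0.78. CXCL8, the main neutrophil chemokine, stood at 86.5, 91.1 and 127 CPM in control and 359, 349 and 401 CPM with STS_apoEV. The rise was 3.65-fold (log2 fold change 1.87, SE 0.126, adjusted p = 1.28e-07), and control replicate 3 was the highest of the controls. CXCL1 and CXCL2, which share a receptor with CXCL8, rose 2.78-fold and 1.99-fold, IL32, an inflammatory cytokine, 2.62-fold, and CCL2, a monocyte attractant, 1.72-fold. TNFAIP3, the feedback inhibitor A20 of NF-kB and on no list, rose 5.76-fold from 6.64, 7.73 and 9.3 to 48.9, 42.6 and 44.6 CPM. Among receptors and signal transducers 8 rose and 4 fell of 35, a share called (34.3%) near the 32.8% over all tested genes; the kinase gene JAK1 fell 1.44-fold from 207 ± 13.9 to 144 ± 13.5 CPM, STAT3 1.43-fold and the TWEAK receptor gene TNFRSF12A 1.67-fold. Complement genes split, 5 higher and 3 lower of 12 (66.7% called). The protease gene C1S rose 4.09-fold from 61.3, 64.5 and 64.3 to 249.8, 261 and 267 CPM (adjusted p = 1.86e-19). The protective membrane protein gene CD55 rose 1.71-fold, while C5 fell 1.66-fold. Macrophage and monocyte markers summed to 8.46 to 12.7 CPM in control and 14.5 to 20 CPM with STS_apoEV, almost all of it CD14 (8.33, 8.07 and 11.4 and 15.1, 19.7 and 14.3 CPM), with FCGR3A, CD163 and AIF1 at 0 in all 6 libraries.

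The promoters of the paired chemokine genes are shown because both carry the letters of an NF-kB site, searched on both strands and printed in capitals within the 130 bases before the start.

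CXCL1, chr4:73869263-73869392, plus strand: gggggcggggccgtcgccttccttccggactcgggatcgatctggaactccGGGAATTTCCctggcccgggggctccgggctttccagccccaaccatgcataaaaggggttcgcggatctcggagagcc
CXCL2, chr4:74099196-74099325, minus strand: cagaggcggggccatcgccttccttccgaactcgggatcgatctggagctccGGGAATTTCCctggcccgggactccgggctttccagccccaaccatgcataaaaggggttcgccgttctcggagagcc

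The matched letters lie 79 bases before the start of CXCL1 and 78 before that of CXCL2. IL32, which also rose, held a match in the same window and is not shown. Of 14 chemokine and cytokine promoters 28.6% held these letters, against 2.15% of promoters of tested genes, 2.61% of genes that rose, 1.99% of genes that fell and 1.92% of all promoters. Another motif searched, the AP-1 site TGACTCA, stood in more of these 14 promoters, 35.7%. Its share was 3.32% of promoters of tested genes, 5.47% of genes that rose and 2.63% of genes that fell. The 2 genes are close paralogs on chromosome 4, so their windows are not separate examples.

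Immune checkpoint and adenosine genes moved in both directions. Of 18 tested 10 rose and 3 fell (72.2% called, against 32.8% over all tested genes). NT5E, the CD73 enzyme that makes adenosine outside the cell, rose 2.16-fold from 55.9, 60.5 and 68.9 to 133, 124 and 143 CPM, and CD276, the checkpoint ligand B7-H3, 1.74-fold. CD38, an NAD-consuming surface enzyme on no list, rose 4.46-fold from 18.8, 23.9 and 21.2 to 93.8, 90.5 and 100.2 CPM (adjusted p = 8.67e-18). PVR, a ligand of the receptor TIGIT, and CD70, the ligand of CD27, fell 2.09-fold and 1.88-fold, and the adenosine receptor gene ADORA2B, from the list of G-protein-coupled receptors, fell 3.52-fold from 44.9, 45.4 and 47.8 to 12.2, 12.6 and 14.4 CPM. CD274, the gene of PD-L1, was listed at 0.39, 1.37 and 0.763 CPM in control and 1.89, 1.35 and 2.75 CPM with STS_apoEV, with overlapping groups (adjusted p = 0.0202), a call lost with DESeq2, with limma on log2(FPKM + 1) without a filter and without control replicate 1, control replicate 3 or STS_apoEV replicate 3.

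In both lists of nucleotide and one-carbon synthesis more genes fell than rose, mostly by under 2-fold. Nucleotide synthesis had 22 of 30 tested members lower and 0 higher (73.3% called, against 32.8% over all tested genes). Its median log2 fold change was −0.35. CTPS1, the enzyme that makes CTP and limits the growth of proliferating cells, stood at 140.4, 123 and 123 CPM in control and 43.9, 37.8 and 43.5 CPM with STS_apoEV, a fall of 3.09-fold (log2 fold change −1.63, SE 0.0827, adjusted p = 1.71e-16). CTPS1 was the only member of that list to change by 2-fold. PAICS and PFAS, of purine synthesis, fell 1.46-fold and 1.54-fold, and the thymidine kinase gene TK1 1.45-fold. One-carbon and serine metabolism had 14 lower and 1 higher of 26 (57.7% called, median −0.30). GLDC, of the glycine cleavage system, fell 2.7-fold, and the folate enzyme gene MTHFD1 1.47-fold.

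Falls also outnumbered rises in the machinery of protein synthesis and folding. Aminoacyl-tRNA synthetases, which load amino acids onto tRNAs, had 17 of 22 lower and 0 higher (77.3% called, median −0.33). AARS1 fell 1.61-fold from 177, 173 and 186 to 109, 119 and 103 CPM and IARS1 1.42-fold. Chaperonin and mitochondrial chaperone genes had 16 of 22 lower and 0 higher (72.7% called, median −0.34). CCT5, a subunit of the chaperonin that folds actin and tubulin, fell 1.63-fold from 608, 584 and 552 to 336, 356 and 375 CPM, and HSPD1, its mitochondrial counterpart HSP60, 1.44-fold from 1390.0 ± 69.3 to 965 ± 66.5 CPM. Translation factors were less uniform, 16 lower and 7 higher of 42 (54.8% called). EEF2, the elongation factor that moves the ribosome along the mRNA, rose 1.68-fold from 494, 451 and 526 to 812, 889.9 and 768 CPM and the start-site factor gene EIF1 1.48-fold, while EIF4A2, an initiation helicase, and GSPT1, a termination factor, fell 1.47-fold and 1.46-fold. The mitochondrial ribosome had 12 lower and 1 higher of 41, a share of 31.7% called that is close to the 32.8% of all genes.

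Nuclear pore, lamin and import genes had 30 of 41 members lower and 1 higher (75.6% called), with a median of −0.37. NUP93 and NUP205, scaffold proteins of the pore, fell 1.82-fold and 1.75-fold, NUP93 from 104, 103 and 99.4 to 55.9, 58.7 and 53.8 CPM. CSE1L, which exports the import adaptor, fell 1.6-fold, and LMNB1, a lamin that is often low in cells that stopped dividing, 1.51-fold from 69.8, 70.8 and 68.7 to 44.7, 43.2 and 50.5 CPM. The single member that rose was LMNA, the gene of lamins A and C (log2 fold change 0.24, adjusted p = 0.0296), a call lost in all 3 fits to FPKM and without control replicate 2 or 3 or STS_apoEV replicate 1 or 2. Splicing factors had 21 lower and 5 higher of 52 (50% called, against 32.8% over all tested genes). SRSF7 fell 1.62-fold, while CIRBP, a cold-inducible RNA-binding protein, rose 1.85-fold. Centrosome and cilium genes had 18 lower and 4 higher of 45 (48.9% called). Among them were PLK4, the kinase of centriole duplication (1.77-fold lower), and CEP55, which acts in the last step of cell division (1.68-fold lower).

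E2F factors drive many genes of nucleotide synthesis and of the cell cycle. Their core, searched as GCGGGAA on both strands, stood in 19.2% of 26 nucleotide synthesis promoters, 18.9% of 37 nuclear pore promoters and 20.5% of 39 centrosome promoters. Other falling lists held it less, with 5.26% of 19 aminoacyl-tRNA synthetase, 3.03% of 33 translation factor and 4.35% of 23 tubulin and kinesin promoters, and it stood in 20% of 35 respiratory chain promoters, a list with 26.1% called. It stood in 10.1% of promoters of tested genes, in 12.4% of genes that fell, 7.91% of genes that fell 2-fold or more, 7.52% of genes that rose and 6.56% of all promoters. Within the 130 bases before the start, the core was found for LMNA, the nuclear pore list member that rose, and for no fallen nuclear pore gene searched there. The promoters of 2 fallen enzymes of DNA precursor synthesis are shown with the core in capitals. PRPS2, a further nucleotide synthesis gene that fell, also held it there and is not shown.

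TYMS, thymidylate synthase, chr18:657523-657652, plus strand: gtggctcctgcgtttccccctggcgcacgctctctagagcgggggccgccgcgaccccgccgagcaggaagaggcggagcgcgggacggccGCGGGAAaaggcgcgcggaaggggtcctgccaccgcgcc
DCK, deoxycytidine kinase, chr4:70993519-70993648, plus strand: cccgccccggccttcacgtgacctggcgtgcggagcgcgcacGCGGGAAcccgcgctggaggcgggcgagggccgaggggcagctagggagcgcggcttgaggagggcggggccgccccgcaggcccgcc

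TYMS fell from 34.9, 32.4 and 39.8 to 22.9, 23.5 and 26 CPM and DCK from 41.8, 46.8 and 40.3 to 34.7, 29.2 and 35 CPM, folds of 1.48 and 1.3. The promoters of CTPS1, NUP93 and NUP205 held no match to these letters.

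**Figure D2:**
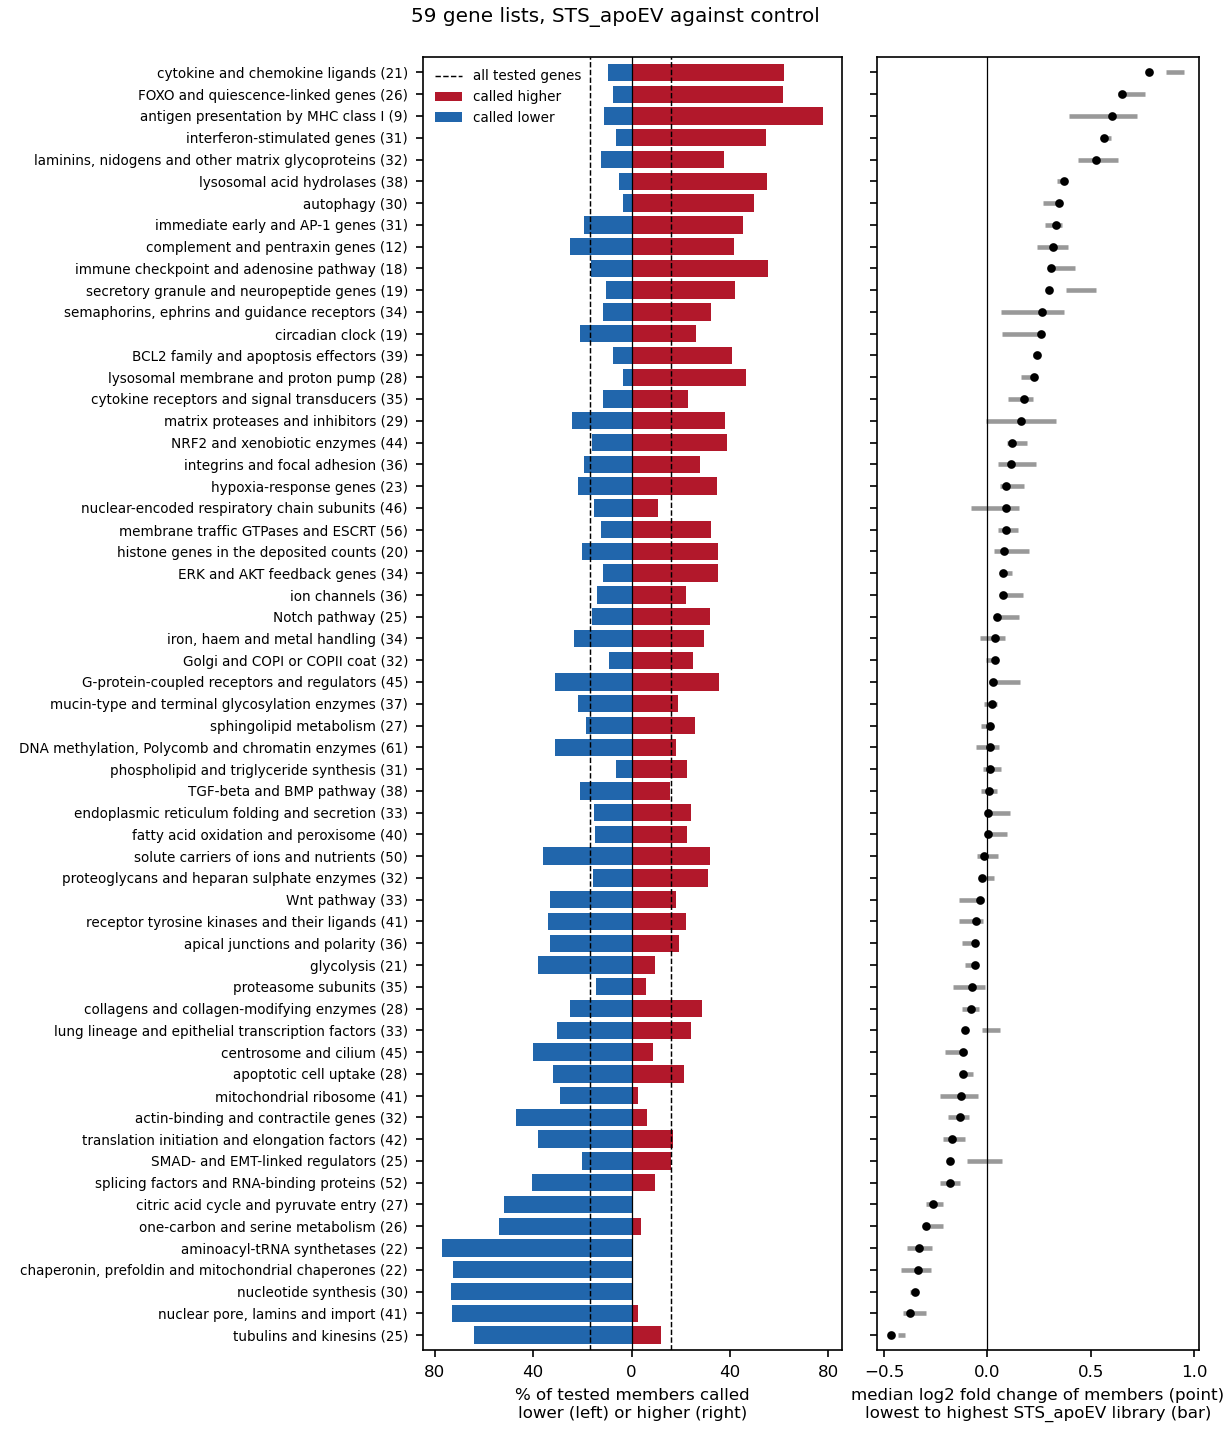
Left, the share of tested members of each of 59 gene lists that was called higher (red, to the right) or lower (blue, to the left) with STS_apoEV, with the number tested in parentheses and dashed lines at the shares over all tested genes (15.9% and 16.8%). Right, the median fitted log2 fold change of the members (point) and the lowest to highest of the 3 STS_apoEV libraries' medians against the control mean on the log2 CPM scale (bar), which can lie beside the point because the scales differ; cytokine, quiescence, MHC class I and interferon lists lie at the top and tubulin, nuclear pore, nucleotide and chaperonin lists at the bottom.

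In central metabolism the citric acid cycle and pyruvate entry had 14 of 27 members lower and 0 higher (51.9% called), with a median of −0.26. PC, the pyruvate carboxylase that refills the cycle, fell 1.97-fold from 21.2, 17.3 and 23.7 to 10.6, 12.3 and 8.59 CPM, and DLAT, a subunit of pyruvate dehydrogenase, 1.53-fold. Glycolysis had 8 lower and 2 higher of 21 (47.6% called, against 32.8% over all tested genes). PFKFB3, whose product makes the main activator of glycolytic flux, fell 1.91-fold from 204, 193 and 194 to 107, 101 and 102 CPM and PFKP, a phosphofructokinase, 1.63-fold, while SLC16A3, the lactate exporter MCT4, rose 2.01-fold and LDHA stood at 55.5 ± 9.36 and 55.6 ± 5.93 CPM (adjusted p = 0.984). Nuclear-encoded respiratory chain subunits changed in 26.1% of 46 members, below the share over all genes, 5 higher and 7 lower. Of the transcripts of the mitochondrial genome, transfer and ribosomal RNA genes included, 14 of 35 rose and 0 fell (40% called). Their median log2 fold change was 0.28.

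Lipid genes split between directions. PNPLA2, the lipase that starts triglyceride breakdown, rose 2.16-fold from 21.5, 17.2 and 21.7 to 44.4, 46 and 39.9 CPM, its inhibitor G0S2 rose from 1.49 ± 0.429 to 9.29 ± 0.52 CPM, and the lipid droplet gene PLIN2 rose 1.29-fold. Among fatty acid oxidation and peroxisome genes 9 rose and 6 fell of 40 (37.5% called, near the 32.8% over all tested genes, with a median that changed sign between settings), ETFB, an electron carrier of that pathway, rising 1.79-fold and PPARG, a lipid-sensing nuclear receptor, falling 1.51-fold. Of 44 NRF2 and xenobiotic enzyme genes 17 rose and 7 fell (54.5% called, median 0.12). GCLC, the first enzyme of glutathione synthesis, rose 1.34-fold and, outside that list, the cystine transporter gene SLC7A11 1.29-fold. The quinone reductase gene NQO1 stood at 3339.9 ± 151 and 3650.1 ± 211 CPM (adjusted p = 0.157), and the drug efflux pump gene ABCG2 fell 1.53-fold. CYP1A1, the classic target of the aryl hydrocarbon receptor, was listed at 0, 0.0684 and 0.0694 CPM in control, 3.09, 3.91 and 4.08 CPM with STS_apoEV and 0.25, 0.427 and 0.0635 CPM with DDP_apoEV (adjusted p = 1.97e-09 against control). Among iron and metal genes, the metallothionein gene MT2A rose 3.89-fold from 61.2, 52.3 and 45.1 to 188, 205 and 225 CPM, the iron exporter gene SLC40A1, from the list of solute carriers, 1.67-fold, and TFRC, the transferrin receptor, fell 1.42-fold from 468, 513 and 430.2 to 338, 296 and 357 CPM.

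Cytoskeletal genes fell more often than they rose. Of 25 tubulins and kinesins 16 fell and 3 rose (76% called, against 32.8% over all tested genes), with a median of −0.47. TUBA1B, an alpha-tubulin, stood at 892, 814 and 820.2 CPM in control and 485, 508 and 477 CPM with STS_apoEV (1.72-fold lower, adjusted p = 6.75e-11). TUBA1C and TUBB6 fell 1.57-fold and 1.74-fold, and the tubulin that nucleates microtubules, TUBG1, 1.63-fold. The alpha-tubulin genes TUBA1B and TUBA1C are near-identical copies, so the division of reads between them is uncertain. Whether reads of other tubulin genes were divided was not examined. Actin-binding and contractile genes had 15 lower and 2 higher of 32 (53.1% called). MYLK, the kinase of myosin light chain and on no list, fell 3.08-fold from 40.4 ± 3.71 to 13.1 ± 0.974 CPM, the tropomyosin gene TPM1 1.52-fold and the formin gene DIAPH3 1.97-fold. At focal adhesions, where integrins meet actin, VCL (vinculin) and TNS3 (tensin) fell 1.8-fold and 2.22-fold, while the collagen-binding integrin subunit gene ITGA2 rose 2.09-fold and TNS4 1.57-fold. AJUBA, on no list, a scaffold of adhesion sites that inhibits the Hippo kinases, fell 2.72-fold from 109, 101 and 86.3 to 36.5, 34.3 and 38 CPM.

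Caveolae, small pits of the plasma membrane that take up material, were represented by 3 falling genes. CAVIN1 fell 2.23-fold from 288, 257 and 249 to 122, 129 and 104 CPM, and CAV1 and CAV2 1.63-fold and 1.55-fold. They belong to a list of 28 tested genes of apoptotic cell uptake, of which 6 rose and 9 fell (53.6% called). Uptake receptors in it moved in both directions: HAVCR1, the phosphatidylserine receptor TIM-1, fell 1.69-fold and LRP1, a large scavenging receptor, rose 2.68-fold from 6.7, 10.6 and 9.58 to 25.2, 27.2 and 19.5 CPM. Outside that list, the bridging proteins MFGE8, from the matrix list, and PROS1, on no list, rose 1.93-fold and 1.38-fold. These proteins link phosphatidylserine to receptors. Of the receptor tyrosine kinases, AXL fell 1.87-fold and MERTK stood at 4.41 ± 0.402 and 4.34 ± 0.161 CPM (adjusted p = 0.955). Among membrane traffic and ESCRT genes 18 rose and 7 fell of 56 (44.6% called, against 32.8% over all tested genes). CHMP1B and CHMP4C, subunits of the membrane-cutting ESCRT-III complex, rose 1.56-fold and 1.9-fold and the small GTPase gene ARF6 fell 1.47-fold. Apical junction and polarity genes had 12 lower and 7 higher of 36 (52.8% called), among them PATJ, a scaffold of apical polarity complexes (1.66-fold lower).

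Matrix genes rose more often than they fell. Laminins, nidogens and other matrix glycoproteins had 12 higher and 4 lower of 32 (50% called), with a median of 0.52. SPP1 (osteopontin), a secreted adhesion protein, stood at 569.8, 534 and 562 CPM in control and 872, 933 and 1012 CPM with STS_apoEV (1.69-fold higher). LAMB3, an epithelial laminin chain, rose 1.76-fold, whereas THBS1 (thrombospondin-1) fell 2.64-fold. FN1 (fibronectin) stood at 138 ± 28.2 and 226 ± 20.8 CPM and did not pass (adjusted p = 0.0697). Collagen genes split, 8 higher and 7 lower of 28 (53.6% called, against 32.8% over all tested genes). The basement membrane chains COL4A6 and COL4A5, neighbours on the X chromosome, rose 4.44-fold and 2.41-fold, COL4A6 from 5.4, 6.63 and 7.7 to 30.5, 29.5 and 27.6 CPM. COL8A1, a short-chain collagen gene, had 0 counts in all 3 control libraries and 36, 53 and 42 counts with STS_apoEV, at least 45-fold higher against a floor of 3 counts over the control group, and 2, 0 and 0 counts with DDP_apoEV. Of the protease genes, PLAU, the urokinase plasminogen activator, and its receptor gene PLAUR rose 1.89-fold and 1.87-fold, and SERPINE2, a protease inhibitor, 2.55-fold from 84.4, 83.7 and 97.6 to 225, 226 and 226 CPM.

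Growth factor receptors and ligands moved in both directions, 9 higher and 14 lower of 41 (56.1% called, against 32.8% over all tested genes). FGFR1, a fibroblast growth factor receptor, stood at 89.5, 92.4 and 84.5 CPM in control and 31.6, 34.7 and 30.1 CPM with STS_apoEV, a fall of 2.76-fold (adjusted p = 5.14e-15). FGFR4 fell 2.7-fold, FGFR3 2.34-fold and FGFBP1, which releases fibroblast growth factors from the matrix, 2.75-fold. EGFR fell 1.39-fold from 88.1 ± 4.81 to 63.1 ± 3.38 CPM and the angiogenic factor gene VEGFA 1.55-fold. TGFB2, a TGF-beta ligand, fell 3.98-fold from 45.6, 47.5 and 43 to 11.1, 9.78 and 13.3 CPM (adjusted p = 2.71e-15), while TGFB1 stood at 59.3, 42.8 and 51.2 and 64.2, 73.7 and 62 CPM (log2 fold change 0.38, adjusted p = 0.00803), and leaving out replicate 2 of either group, or limma on log2(FPKM + 1) without a filter, ended that call. Of the Wnt ligands and receptors WNT7B fell 2.36-fold and FZD2 1.95-fold, and SFRP1, a secreted inhibitor, rose 1.75-fold. The Wnt list had 6 higher and 11 lower of 33 (51.5% called). In the Notch list LFNG, a glycosyltransferase that tunes Notch receptors, rose 3.73-fold from 7.94, 6.16 and 9.09 to 27.8, 31.9 and 26.7 CPM and the target gene HES1 2.07-fold, while the ligand gene JAG1 fell 1.76-fold. Among guidance genes the ephrin gene EFNA1 rose 2.99-fold from 19.9, 22.8 and 23.7 to 64.9, 67.9 and 65.5 CPM.

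Secretory granule genes had 8 higher and 2 lower of 19 (52.6% called), and lineage and epithelial transcription factors 8 higher and 10 lower of 33 (54.5% called). Over all tested genes 32.8% were called. CHGB, a core protein of secretory granules, stood at 7.29, 8.41 and 13.5 CPM in control and 47.6, 43.2 and 44.4 CPM with STS_apoEV (4.65-fold higher), and RAB27B, a GTPase of granule and exosome release, rose 1.65-fold. TP63, a transcription factor of basal epithelium, rose 4.74-fold from 2.54, 2.12 and 3.75 to 14.5, 12.8 and 12.5 CPM, SOX4 2.1-fold and SOX2 3.1-fold, while ETS1 and EHF fell 1.59-fold and 1.42-fold. Airway epithelial markers summed to 8.3 to 10.5 CPM in control and 36.1 to 44.7 CPM with STS_apoEV, with 7 of the 9 listed genes under 1 CPM and SCGB3A2 at 0. TPPP3, a microtubule-binding protein of ciliated cells, carried most of that sum, at 6.51, 5.34 and 7.01 CPM in control, 28.1, 35.7 and 32 CPM with STS_apoEV and 1.13, 0.853 and 1.59 CPM with DDP_apoEV. Alveolar markers summed to 25.9 to 29.3 and 25 to 33 CPM, so the groups overlapped.

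Among chromatin genes 19 fell and 11 rose of 61 (49.2% called, against 32.8% over all tested genes). DNMT1, the maintenance DNA methyltransferase, fell 1.64-fold from 64.2, 63.2 and 70.0 to 42.8, 38.3 and 38.9 CPM, the histone methyltransferase genes DOT1L and NSD1 1.74-fold and 1.64-fold, and EZH2, of the Polycomb complex, from 84.7 ± 6.9 to 60.2 ± 3.21 CPM, while HDAC5, a histone deacetylase, rose 2.16-fold. The linker histone gene H1-2 rose 2.2-fold. Clock genes split, BMAL1 falling 1.78-fold and NR1D2, a repressor in the same loop, rising 1.69-fold. Of long non-coding genes, MEG3 rose 2.58-fold from 13.2 ± 3.08 to 34.1 ± 1.18 CPM, and the small nucleolar RNA host gene SNHG1 fell 1.66-fold from 123, 128 and 119 to 70.9, 76.6 and 75.2 CPM.

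Some groups stayed near or below the 32.8% called over all tested genes. That share depends on abundance, at 9.29% under 1 CPM, 41.9% at 10 to 100 CPM and 52.8% at 100 to 1000 CPM. The lists here and above were not matched for abundance, so 32.8% is a rough reference for them. Proteasome subunits changed in 20% of 35 members, 2 higher and 5 lower, PSMD2 by −0.32 on the log2 scale. Golgi and coat proteins had 8 higher and 3 lower of 32 (34.4% called), phospholipid and triglyceride genes 7 and 2 of 31 (29%), and TGF-beta and BMP genes 6 and 8 of 38 (36.8%). Endoplasmic reticulum genes had a median of 0.01, with 8 higher and 5 lower of 33 (39.4% called). The stress sensor gene ERN1 (IRE1) rose 2.07-fold from 19.9, 20.3 and 24.7 to 50.6, 40.7 and 43.1 CPM, and the folding factor gene MANF fell 1.36-fold. HMGB2, a chromatin protein of dividing cells, stood at 148, 139 and 135 CPM in control and 135, 139.9 and 152 CPM with STS_apoEV (adjusted p = 0.921), and HIF1A fell by 0.31 on the log2 scale.

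The staurosporine vesicles were also compared directly with the cisplatin vesicles, in a test that shares the STS_apoEV libraries with the comparison above. Between them 6721 of 16947 genes differed (39.7%), 3422 higher (20.2%) and 3299 lower (19.5%) with STS_apoEV. Lysosomal hydrolases were higher than with DDP_apoEV in 26 of 38 members and lower in 1, autophagy genes in 19 and 2 of 30, and interferon-stimulated genes in 21 and 2 of 31. DDP_apoEV itself was below control in 12 of the hydrolases and above it in 3 (median −0.17). Aminoacyl-tRNA synthetases were lower in 20 of 22 members, nuclear pore genes in 32 of 41, nucleotide synthesis genes in 25 of 30 and chaperonin genes in 16 of 22. With DDP_apoEV against control 7 tRNA synthetases, 4 nuclear pore, 6 nucleotide synthesis and 7 chaperonin genes were higher and 1, 0, 2 and 0 lower. Over all 16947 tested genes, 1213 were higher and 1410 lower with DDP_apoEV against control, which is the reference for these counts. Proteasome subunits, of which few changed against control with STS_apoEV and 7 were higher and 0 lower with DDP_apoEV (median 0.13), were lower than with DDP_apoEV in 19 of 35 and higher in 0. IGFBP1 stood at 8.94, 8.23 and 9.72 CPM with DDP_apoEV, under every control library, and differed between the vesicle types by 3.64 on the log2 scale (adjusted p = 2.64e-23). TPPP differed by 2.99, CXCL8 by 2.71, CTSS by 1.66 and CTPS1 by −2.08. Other changes were near the level of DDP_apoEV: KRT18 stood at 2239 ± 117 CPM with STS_apoEV and 2274 ± 96.8 CPM with DDP_apoEV (difference −0.02, adjusted p = 0.827), FGFR4 at 16.8 ± 1.98 and 18.6 ± 1.03 CPM (adjusted p = 0.308) and NT5E at 133 ± 9.49 and 118 ± 4.3 CPM (adjusted p = 0.0805). Those p-values do not show that the levels are equal.

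**Figure D3:**
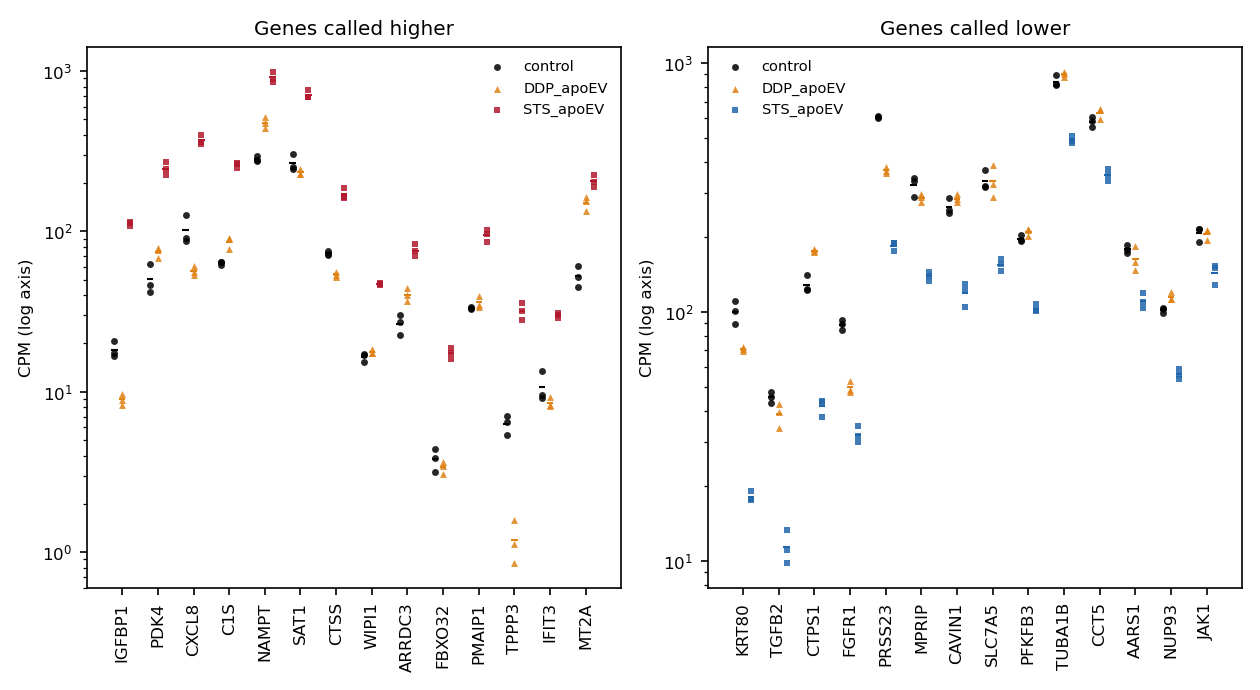
CPM (log axis) of 14 genes called higher and 14 called lower with STS_apoEV, with 1 point per library and a short line at the mean of 3, for control (black circles), DDP_apoEV (orange triangles) and STS_apoEV (squares). In all 28 genes the STS_apoEV libraries lie apart from the control libraries, which was a condition for naming most of them. IGFBP1 and TPPP3 lie below control with DDP_apoEV.

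The changed genes were spread over all chromosomes, with some unevenness. On chromosome 19 216 genes rose and 98 fell of 1058 tested, and on chromosome 9 164 rose and 94 fell of 689, whereas on chromosome 2 170 rose and 255 fell of 1178. The shares called there were 29.7%, 37.4% and 36.1%, against 32.8% over all tested genes. Rises made up 68.8%, 63.6% and 40% of those calls, against 48.6% of all calls. On chromosome 19 the excess of rises was present with the ZNF genes left out (196 higher, 89 lower). The share of rises among calls went from 62.9% in the shortest 20% of genes to 40.7% in the longest 20%. Single libraries also differed within a group: the median log2 ratio of the shortest minus the longest 20%, over genes of at least 10 CPM, was 0.138, −0.152 and 0.0109 for the 3 control libraries against the other controls, and −0.0181, 0.229 and 0.112 for the 3 STS_apoEV libraries against all controls. The part of gene length in the calls was not tested further. Counts of 0 in all 3 STS_apoEV libraries against at least 30 in control were found for CBLN2, a secreted synaptic protein (20, 24 and 5 counts in control, at least 15.8-fold lower against a floor of 3 counts over the STS_apoEV group), and for TWIST2, where 1 control library held 45 of the counts and the gene did not pass the filter.

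In hg38 coordinates as deposited, 5 of the genes described above lie at the following places. IGFBP1 is ENSG00000146678, chromosome 7, 45888360 to 45893660, plus strand. CTSS is ENSG00000163131, chromosome 1, 150730079 to 150765957, minus strand. PRSS23 is ENSG00000150687, chromosome 11, 86791059 to 86952910, plus strand. CTPS1 is ENSG00000171793, chromosome 1, 40979300 to 41012565, plus strand. PMAIP1 is ENSG00000141682, chromosome 18, 59899996 to 59904305, plus strand. All are protein-coding in GENCODE v29.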

How the data were processed

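Per the labels' protocols, RNA of A549 cells was sequenced from NEBNext Ultra libraries. Whether strand was kept is not stated. The submitters' processing notes name featureCounts 1.5.0-p3 (Subread), limma, HISAT2 2.0.5, the build hg38 and StringTie 1.3.3b, and give no roles. The authors deposited raw read counts (whole numbers per gene) and, for the same genes, FPKM values, which divide by length and library total. The treatment of multi-mapping reads is not given in the sources. Counts were tested with edgeR 4.0.16 (R 4.3.3; quasi-likelihood, robust, TMM, default expression filter) over all 9 libraries without covariates, with Benjamini-Hochberg adjustment over 16947 genes. Every adjusted p of a gene is from that test. SE values are the absolute log2 fold change over the root of the F statistic. The script was tested on simulated counts. FPKM served alternatives in limma 3.58.1, and DESeq2 1.42.0 and limma-voom were others. Group values are mean ± SD over 3 libraries, and triplets are replicates 1 to 3.

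The 60 gene lists, the comparison and the genes were chosen with earlier results of these data known. Genes were named by rule among called genes whose groups did not overlap and whose mean log2 CPM was 1 or more: ranks 9 to 24 of the rises and of the falls, the 12 largest rises and falls at 200 CPM or more, and up to 5 members of smallest p per list. A further 12 fixed genes were named whatever their call. Other genes in the text, those on no list included, were chosen after their values were seen. Some genes that the rule names, and 1 list, are not reported here. Gene types come from GENCODE v29, and promoters from RefSeq (GRCh38.p14), with 11282 tested genes matched by symbol.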

Additional observations from a re-analysis of the deposited data

How the results depend on the processing

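The counts of changed genes, 2698 higher and 2854 lower against control, stayed within 1.5 times under every alternative except limma on log2(FPKM + 1) without a filter on low values, which gave 1542 higher and 1770 lower, and 2063 higher against DDP_apoEV (3422 from the counts). DESeq2 gave 2265 and 2690. Upper-quartile factors turned the balance of calls to 2977 higher and 2596 lower (53.4% higher, against 48.6%). Leaving out 1 library gave 2083 to 2515 higher and 2453 to 2752 lower against control, and 2889 to 3127 and 2910 to 3108 against DDP_apoEV, where leaving out each DDP_apoEV library was chosen after seeing the data. Of genes described in the text as changed, BCL2, CBLN2, CFLAR, CTSA, CTSV, DCK, FAS and FGFR3 were also not called with limma on log2(FPKM + 1) without a filter, and CTSV without STS_apoEV replicate 1. No gene called in the main comparison changed direction in any alternative run. HMGB2, which was not called (0.01 on the log2 scale), changed sign without a filter (−0.0078), with DESeq2 (−0.0026), on log2(FPKM + 1) with and without a filter (−0.0032) and log2(FPKM + 0.1) (−0.0032), and without control replicate 2 (−0.012), control replicate 3 (−0.033) or STS_apoEV replicate 3 (−0.039), with a highest value of 0.038 without STS_apoEV replicate 1. The cause was not tested. Same-numbered libraries did not deviate together (correlations −0.0605, −0.0847 and −0.0543). That does not exclude a pairing by number, which the labels do not state. With the replicate block 2578 genes were higher and 2719 lower, and 3289 and 3140 against DDP_apoEV. Medians of lists near 0, such as fatty acid oxidation, changed sign under several settings. With 3 libraries a group and 13799950 to 15492993 counts each, 9.29% of genes under 1 CPM were called and 52.8% of genes at 100 to 1000 CPM.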
